A study of Homo sapiens with 14 samples.

Results

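The response to TGF-β was read from 3 of the 14 arrays of the series, chosen by their labels: cells given 10 ng/mL TGF-β for 1 day, cells given it for 2 days, and untreated cells. Each array is 1 library and no condition was repeated. The cells are a human gastric carcinoma line that forms an epithelial sheet, named MKN28 in the labels and MKN74 in the paper. They were grown in RPMI with serum and seeded sparsely, so that single colonies had formed before the treatment. The untreated array is labelled as cells without hypoxia treatment on day 2. It is the only untreated array of the parental line among the 14, so both days of TGF-β are set against the same day 2 array. None of the 3 carries a knockdown. The study used TGF-β, hypoxia and a Snai1-ER transgene switched on by 4-OHT as models of the epithelial to mesenchymal transition (EMT). The other 11 arrays serve here only to show where a level lies. They comprise hypoxia with and without ANGPTL4 knockdown, TGF-β with knockdown, the Snai1ER line untreated, and that line given 4-OHT with and without knockdown.

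TGF-β binds a pair of receptor kinases, TGFBR2 and TGFBR1, which phosphorylate SMAD2 and SMAD3. These join SMAD4 and enter the nucleus, where they act on genes together with other factors. Among the genes they raise are inhibitors of the pathway itself, such as SMAD7, SKIL, PMEPA1 and the ubiquitin ligases SMURF1 and SMURF2. In epithelia the pathway is known for growth arrest and for EMT, in which cells give up junction and keratin genes and take up genes of the matrix and of the contractile cytoskeleton.

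Values are log2 levels, made comparable by giving all 14 arrays the same distribution (quantile normalization), and a difference is TGF-β minus untreated. A gene was called higher or lower when it differed at least 1.5-fold in the same direction on both days. This is a rule of size with no test, since 1 array per condition gives no spread between replicates. Of 18417 genes with a probe set of their own, 11050 reached the filter on dim genes and were compared. The normalization matters for these 2 arrays. As deposited, their medians over all probe sets were 5.23 and 5.19, against 6.02 for the untreated array and 6.0 to 6.16 for the 12 arrays other than the TGF-β pair. Over the genes compared, the median difference was therefore -0.45 on day 1 and -0.47 on day 2 as deposited, and 0.02 and 0.00 after quantile normalization. Both TGF-β arrays carry the lower scale and no array of the untreated parental cells does, so the treatment and whatever set the scale cannot be told apart. Within the pair, day 2 differed from day 1 with an SD of 0.15 over genes, less than between the times of any other condition (0.24 to 0.80). The SD of the TGF-β arrays from the untreated array was 0.37 and 0.36, while the untreated Snai1ER array of day 4 differed from it with an SD of 0.47. An untreated array, though of the transgenic line and a later day, thus lay farther from the untreated parental array than the TGF-β arrays did. For many of the genes below, the level on that second untreated array is therefore given too.

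The markers on all 3 arrays were those of an epithelial line. EPCAM, an adhesion molecule of epithelia, read 11.69 and 11.71 with TGF-β and 11.75 untreated, and KRT8, a keratin of simple epithelia, read 12.46 and 12.32 with TGF-β and 12.29 untreated. Of 9 epithelial markers 8 were above the filter. Of these 8, KRT19 and CLDN4 were lower (25%, against 3.26% of all genes) and none was higher. The mean difference was below 0 for 6 of the 8, and the median difference was -0.51 and -0.42. The median level of the 9 was 9.90 and 9.87 with TGF-β and 11.02 untreated, which is not the level of the same gene on each array. Of 10 fibroblast, 10 leukocyte and 8 endothelial markers on the array, 1, 2 and 1 reached the filter and none was called. RNA of a culture is measured as a whole, so that fewer cells of a kind and less RNA per cell cannot be told apart.

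With TGF-β, 276 genes were higher on both days (2.5% of those compared) and 360 were lower (3.26%). As deposited the same rule gave 50 and 3565 genes, and with each array centred on its median 2490 and 206. The rise passed 2-fold on both days for 48 genes and 4-fold for 4, and the fall for 105 and 12. A further 184 genes were higher only on day 1 and 110 only on day 2, and 125 and 159 were lower only on day 1 or only on day 2. No gene passed 1.5-fold in opposite directions. Of the 276 higher genes 37 had an untreated level under the filter level of 5.90, and of the 360 lower genes 61 had both TGF-β arrays under it. Folds of these genes start or end at a dim level. Around the limit, PEA15 (smaller difference of the 2 days 0.59) lay just inside and RND3 (0.58) just outside among the higher genes, and MSLN (-0.58 on day 1) and RGL3 (-0.58) did so among the lower ones. Of the called genes, 37 of the higher and 98 of the lower belong to the gene lists described here.

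**Figure D1:**
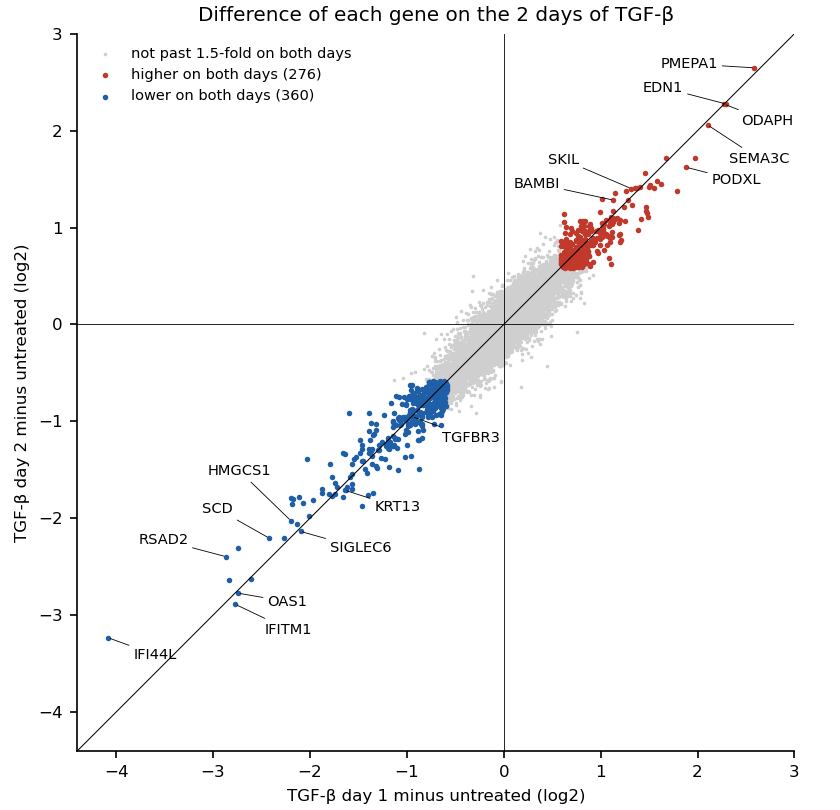
Difference of each of 11050 genes from the untreated array on day 1 (x axis, log2) and day 2 (y axis, log2) of TGF-β, after quantile normalization. Genes higher on both days (276, red) and lower on both days (360, blue) lie along the diagonal, from PMEPA1 at 2.59 and 2.65 to IFI44L at -4.08 and -3.23.

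How far a call rests on the single untreated parental array can be read from the 10 arrays of cells not given TGF-β. On both TGF-β arrays together, 6.56% of all genes lay above those 10 and 5.92% lay below them. Of the higher genes, 128 of 276 (46.4%) were above all 10, and of the lower genes 96 of 360 (26.7%) were below all 10. Set against the untreated Snai1ER array alone, 6.87% of all genes were higher by the same rule and 4.18% lower. Of the 276 higher genes 115 passed this second comparison too (41.7%), and of the 360 lower genes 107 (29.7%). Among the lower genes, the untreated Snai1ER array was itself below the untreated parental array by 1.5-fold or more in 51.4%, against 8.14% of all genes. Among the higher genes it was above by as much in 25.0%, against 5.09% of all genes. Both comparisons with the untreated parental array share that array, so these shares describe the calls and test nothing.

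The largest rise was in the feedback loop of the pathway. PMEPA1, whose protein binds receptor-activated SMADs and restrains them, read 8.33 and 8.39 on days 1 and 2 of TGF-β and 5.74 untreated, a 6.0-fold and 6.27-fold difference. Its untreated level was under the filter level of 5.90. On the 10 arrays without TGF-β PMEPA1 reached at most 7.03, on the untreated Snai1ER array. SKIL, a SMAD corepressor, stood 1.32 and 1.40 above the untreated level of 9.69 (2.49-fold and 2.64-fold). SMURF2, a ubiquitin ligase that targets SMADs and the receptors, read 10.68 and 10.65 with TGF-β and 9.58 untreated. The untreated Snai1ER array read 10.27 for SMURF2, a difference of 0.41 and 0.38 that is short of the rule. All 3 lay above every array without TGF-β. BAMBI, a pseudoreceptor without kinase activity, read 10.12 and 10.27 with TGF-β and 8.99 untreated, but it was higher still, at 10.78, on a hypoxia array with knockdown. NEDD4L, another ubiquitin ligase of the pathway, differed by 0.69 and 0.61, and the untreated Snai1ER array read 10.01, beside 10.11 and 10.03 with TGF-β. Of 17 feedback inhibitors compared these 5 were higher (29.4%, against 2.5% of all genes) and none was lower, with a median difference of 0.36 and 0.28. Set against the untreated Snai1ER array, 3 of the 17 were higher and none lower, beside 6.87% and 4.18% of all genes. The median difference was then 0.10 and 0.23. SMAD7, the inhibitory SMAD, differed by 0.36 and 0.49 and SMURF1 by 0.70 and 0.48, short of the rule on at least 1 day. The BMP antagonist NOG differed by 0.57 and 0.85. The remaining 9 members, among them SKI, TGIF1 and PPM1A, lay between -0.27 and 0.36.

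**Figure D2:**
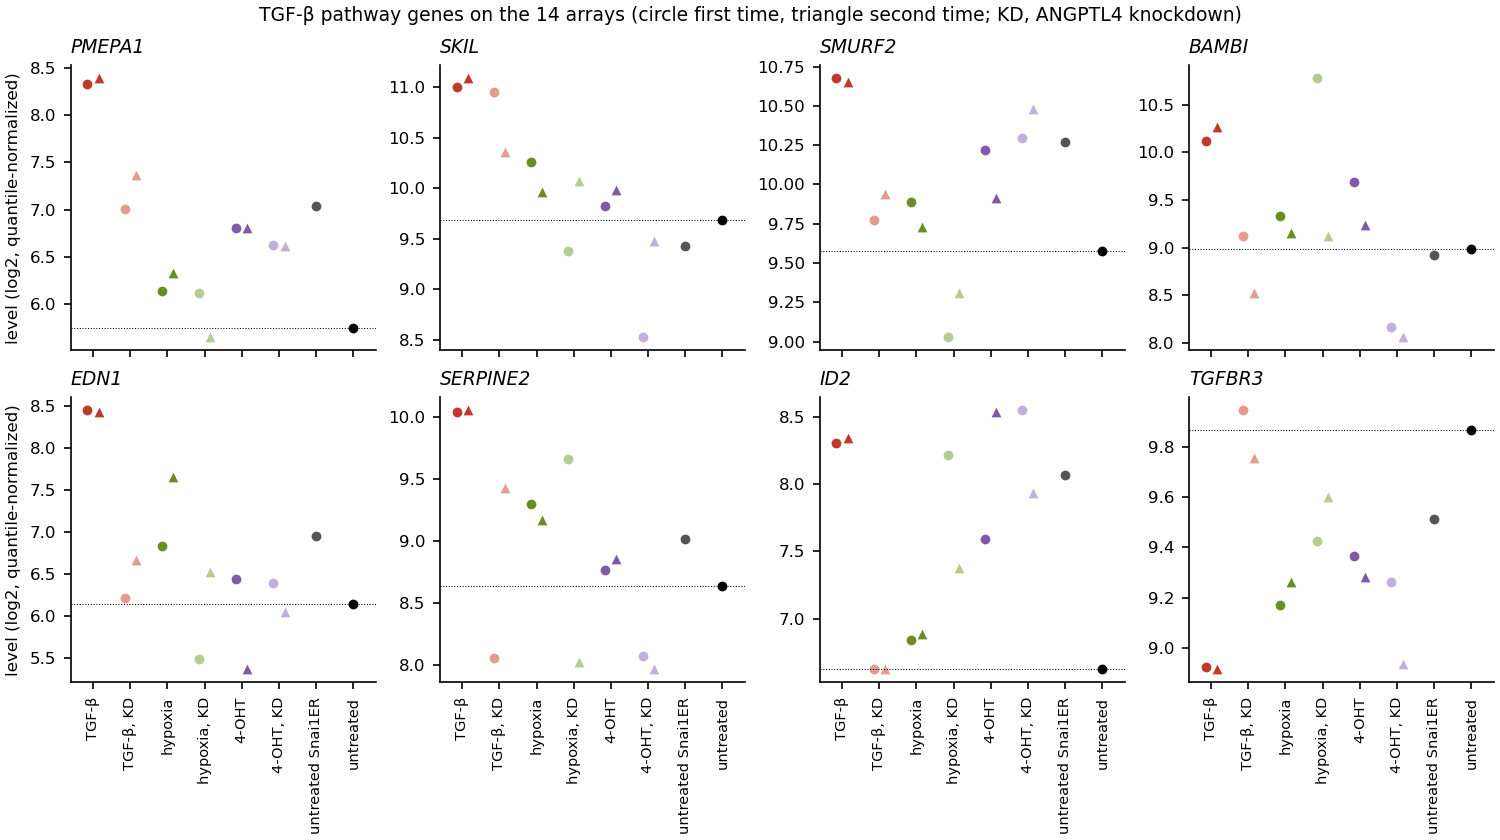
Level (y axis, log2 after quantile normalization) of 8 genes of the TGF-β pathway on the 14 arrays by condition (x axis), with a circle for the first and a triangle for the second time and a dotted line at the untreated array. PMEPA1, SKIL, SMURF2, EDN1 and SERPINE2 read higher on both TGF-β arrays than on any array without TGF-β, TGFBR3 read lower, and BAMBI and ID2 did not stand apart.

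Upstream components mostly stayed within the rule. Of 11 ligands and genes of ligand activation, THBS1 was higher (9.09%, against 2.5% of all genes) and GDF15 lower (9.09%, against 3.26%). THBS1, which encodes thrombospondin 1, an activator of latent TGF-β, read 10.55 and 10.45 with TGF-β and 8.97 untreated, but 10.92 on the untreated Snai1ER array. GDF15, a stress-induced ligand of the family, read 6.79 and 6.86 with TGF-β and 8.15 untreated, and 6.38 on the untreated Snai1ER array. Neither change therefore holds against both untreated arrays. TGFB1 itself differed by 0.35 and 0.42, and LTBP1, which anchors latent TGF-β in the matrix, by -0.55 and -0.45. Among 10 receptors only TGFBR3 was called, as lower (10%, against 3.26% of all genes). This coreceptor, betaglycan, read 8.92 and 8.91 with TGF-β and 9.87 untreated (1.92-fold and 1.93-fold lower), and lay below every array without TGF-β, the lowest of which read 8.93. The signalling receptors TGFBR2 (0.47 and 0.53) and TGFBR1 (0.17 and 0.09) stayed within the rule. Of 24 SMADs and partner factors only the transcription factor ETS1 was called (4.17%, beside 2.5% of all genes), higher by 0.64 and 0.68. The untreated Snai1ER array exceeded it, at 9.45 against 8.57 and 8.61 with TGF-β. SMAD2 (-0.08 and 0.10), SMAD3 (-0.03 and -0.24) and SMAD4 (-0.31 and -0.20) did not pass the rule.

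Of 35 genes listed as direct targets of the pathway 9 were higher (25.7%, against 2.5% of all genes) and 2 were lower (5.71%, against 3.26%), with a median difference of 0.19 and 0.17. Of these 11, 7 lay beyond every array without TGF-β. EDN1, the precursor of the vasoconstrictor endothelin 1, read 8.45 and 8.42 with TGF-β and 6.15 untreated (4.92-fold and 4.84-fold), and at most 7.66 without TGF-β. SERPINE2, an inhibitor of serine proteases, read 10.04 and 10.06 with TGF-β and 8.64 untreated. TUFT1, first described as an enamel protein, read 9.33 and 9.0 with TGF-β and 7.91 untreated, and ELK3, an ETS-family factor, 9.87 and 9.78 with TGF-β and 8.87 untreated. FN1 (fibronectin), ANKRD1, CCN1, ITGA2 and TPM1 were the other 5 and are described with adhesion and with the YAP targets. The 2 lower ones were DAPK1, a kinase that promotes cell death (7.57 and 7.68 with TGF-β and 8.96 untreated), and the angiogenic factor VEGFA (8.78 and 8.67 with TGF-β and 9.57 untreated). DAPK1 was below every array without TGF-β, while VEGFA was lower still on the untreated Snai1ER array, at 8.05. The targets CDKN2B (-0.04 and 0.03) and CDKN1A (-0.31 and -0.20), inhibitors of cyclin-dependent kinases, and SNAI1 (-0.29 and -0.35) did not pass the rule.

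The ID genes and MYC are known to be lowered by TGF-β in many epithelia. Here 3 of 7 genes of that list were higher (42.9%, against 2.5% of all genes) and none was lower. ID2, an inhibitor of basic helix-loop-helix factors, read 8.30 and 8.35 with TGF-β and 6.62 untreated (3.20-fold and 3.30-fold). The untreated array was the lowest of the 10 without TGF-β for this gene, and the untreated Snai1ER array read 8.07. ID1 differed by 0.74 and 0.77, and was at 6.96 on the untreated Snai1ER array against 6.83 and 6.86 with TGF-β. MYC read 10.42 and 10.24 with TGF-β and 9.65 untreated, with 9.80 on the untreated Snai1ER array. From that array it differed by 0.62 and 0.44, short of the rule on day 2. It was higher still, at 10.64, on a 4-OHT array with knockdown. Set against the untreated Snai1ER array, none of the 7 genes was higher or lower by the rule.

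To show the DNA ahead of the gene with the largest rise, its promoter is given from RefSeq on GRCh38.p14, 250 bases before to 50 after the start site on the strand of the gene, at chr20:57711423-57711722 on the minus strand. Capitals mark GGCGCC, a GC-rich sequence that SMAD proteins can bind, which begins at -207 from the start site. It is a description and no sign of binding.
PMEPA1: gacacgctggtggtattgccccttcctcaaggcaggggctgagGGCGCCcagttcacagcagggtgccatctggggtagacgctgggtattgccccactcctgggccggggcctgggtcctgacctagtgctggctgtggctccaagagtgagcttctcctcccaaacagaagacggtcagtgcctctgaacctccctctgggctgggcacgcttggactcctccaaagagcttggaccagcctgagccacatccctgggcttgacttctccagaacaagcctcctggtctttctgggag
The sequence was searched on both strands and is common. It occurs in 31.1% of the 8908 compared genes with a promoter in the table and in 31.7% of 218 higher and 24% of 275 lower genes. The SMAD motif CAGACA occurs in 12.5% of compared genes, 15.1% of higher and 18.5% of lower genes.

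Outside the pathway lists, 8 genes were among the 12 largest rises. ODAPH, a phosphoprotein of enamel formation, read 8.20 and 8.20 with TGF-β and 5.93 untreated. SEMA3C, a secreted semaphorin that guides axons and migrating cells, read 8.92 and 8.87 with TGF-β and 6.82 untreated. MFAP5, a microfibril protein of the matrix, read 7.59 and 7.34 with TGF-β and 5.62 untreated, the last under the filter level of 5.90. These 3 were above every array without TGF-β. So were PODXL, an anti-adhesive sialomucin (1.89 and 1.62), CST6, an inhibitor of cysteine proteases (1.79 and 1.38), and NAV3, a microtubule-associated protein (1.63 and 1.45). RASGRP1, an activator of Ras (1.46 and 1.56), and SEMA7A, a membrane-anchored semaphorin (1.55 and 1.41), complete the 12 largest together with PMEPA1, EDN1, ID2 and THBS1. Of these 12, ID2 and THBS1 alone were not above all arrays without TGF-β.

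Among adhesion and cytoskeleton genes a few in each list were called. Of 12 integrins and their activators, ITGA2, a collagen receptor subunit, was higher (11.16 and 11.12 with TGF-β and 9.91 untreated), as was FERMT1, the integrin activator kindlin 1 (9.78 and 9.72 with TGF-β and 8.63 untreated). Both were above all arrays without TGF-β, ITGA2 by less, since the untreated Snai1ER array read 10.86. ITGB8, whose integrin activates latent TGF-β, was lower by the rule at -0.59 and -0.62. The integrin list thus had 16.7% higher and 8.33% lower, beside 2.5% and 3.26% of all genes. Of 28 matrix genes, FN1 (1.38 and 0.97) and CCN1, a matricellular protein (0.93 and 0.85), were higher, and COL12A1, a fibril-associated collagen, was lower, at 6.21 and 6.14 with TGF-β and 7.78 untreated. These are 7.14% of the list higher and 3.57% lower, beside 2.5% and 3.26% of all genes. FN1 and CCN1 were not above all arrays without TGF-β (9.24 and 8.83 with TGF-β for FN1, against up to 9.23 on those arrays and 8.72 on the untreated Snai1ER array), and CCN1 was higher on the untreated Snai1ER array. Of 15 proteases and their inhibitors SERPINE2 and the cathepsin CTSV were higher (13.3%, beside 2.5% of all genes). PLAT, the tissue plasminogen activator, and ADAM15 were lower (13.3%, beside 3.26% of all genes). Of 24 genes of the contractile and mesenchymal cytoskeleton, PALLD, an actin bundling protein (9.42 and 9.35 with TGF-β and 8.29 untreated), and TPM1, a tropomyosin (9.4 and 9.36 with TGF-β and 8.75 untreated), were higher and above all arrays without TGF-β. In the same list ACTA2, the smooth muscle actin (-0.63 and -0.83), S100A4 (-1.77 and -1.78) and VIM, the mesenchymal filament vimentin (-1.19 and -1.28), were lower. Of this list 8.33% were thus higher and 12.5% lower, beside 2.5% and 3.26% of all genes. S100A4 read 8.07 and 8.07 with TGF-β, 8.97 on the untreated Snai1ER array and 9.84 on the untreated parental array. VIM read 4.40 and 4.31 with TGF-β and 5.59 untreated, all below the filter level of 5.90, and passed the filter only through the Snai1ER arrays (7.90 on the untreated one).

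**Figure D3:**
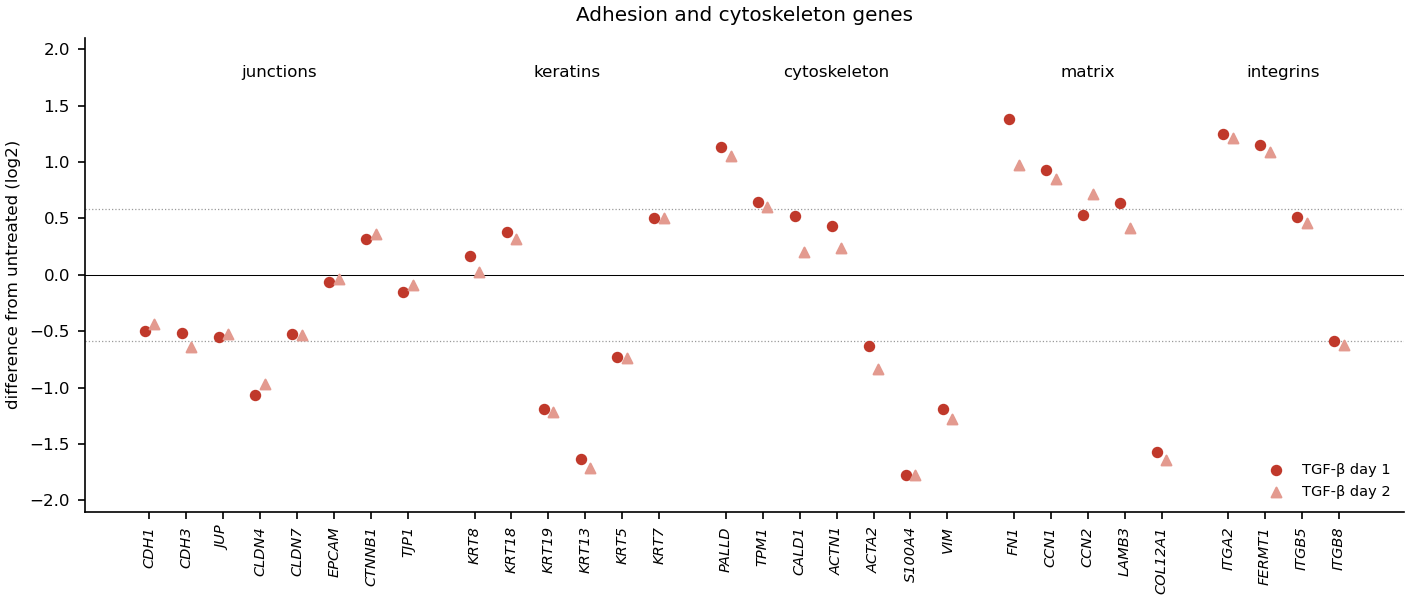
Difference from the untreated array (y axis, log2) on day 1 (circles) and day 2 (triangles) of TGF-β for 30 genes of junctions, keratins, cytoskeleton, matrix and integrins (x axis), with dotted lines at 1.5-fold. KRT19, KRT13, CLDN4, S100A4, VIM and COL12A1 lie below the lower line on both days, and PALLD, FN1, ITGA2 and FERMT1 above the upper one.

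Of 38 junction and polarity genes 2 were lower, CLDN4 (-1.07 and -0.96), a claudin of tight junctions, and PROM2, a membrane protrusion protein (-0.59 and -0.68), which is 5.26% beside 3.26% of all genes. None was higher. On the untreated Snai1ER array CLDN4 read 7.93, beside 7.54 and 7.64 with TGF-β, and PROM2 read 6.94, below 7.24 and 7.15 with TGF-β. CDH1, which encodes E-cadherin, read 10.52 and 10.59 with TGF-β and 11.02 untreated, 1.41-fold and 1.35-fold lower and short of the rule. It was nevertheless below all 10 arrays without TGF-β, of which the untreated Snai1ER array was the lowest at 10.63. The median of the junction list was -0.08 and -0.10, and relative to the median of all genes it was -0.12 on the quantile scale but 0.03 as deposited. Of 9 keratins 3 were lower (33.3%, beside 3.26% of all genes) and none was higher. KRT19 read 9.90 and 9.87 with TGF-β and 11.09 untreated, KRT13 7.97 and 7.89 with TGF-β and 9.60 untreated, and KRT5 7.68 and 7.67 with TGF-β and 8.41 untreated. On the untreated Snai1ER array KRT13 (7.53) and KRT5 (6.21) were below their levels with TGF-β, and KRT19 (10.76) was above. KRT18 differed by 0.38 and 0.32. Of 19 EMT transcription factors and their epithelial counterparts, ETS1 was higher (5.26%, beside 2.5% of all genes). The epithelial factor ELF5 was lower (5.26%, beside 3.26% of all genes), at -0.94 and -0.76. Neither held against the untreated Snai1ER array, where ELF5 read 8.62, below 9.18 and 9.35 with TGF-β, and ETS1 read 9.45, above its levels with TGF-β. TWIST1 (0.22 and 0.30) did not pass the rule, and ZEB1, ZEB2 and SNAI2 were not above the filter.

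Targets of the coactivator YAP, which reads cell shape and spreading, included 5 higher genes of 19 (26.3%, against 2.5% of all genes) and no lower one. ANKRD1, a nuclear cofactor, read 11.07 and 10.88 with TGF-β, 10.69 on the untreated Snai1ER array and 9.81 on the untreated parental array. NT5E, the ecto-nucleotidase CD73, read 9.34 and 9.35 with TGF-β and 8.31 untreated, and GADD45A, a stress sensor, 8.59 and 8.53 with TGF-β, 8.28 on the untreated Snai1ER array and 7.59 on the untreated parental array. Against the untreated Snai1ER array 2 of the 19 were higher and 2 lower. CCN1 and DOCK5 were the other 2. NT5E and DOCK5 were above all arrays without TGF-β. CCN2 differed by 0.53 and 0.71 and passed the limit on day 2 only. Of 24 cytokine and NF-κB genes TNFAIP3 (1.11 and 0.90), NFKB2 (0.91 and 0.85) and NFKBIZ (0.82 and 0.69), all part of the NF-κB system or its feedback, were higher, and the chemokine CCL5 was lower (-1.72 and -1.68). These are 12.5% of the list higher and 4.17% lower, beside 2.5% and 3.26% of all genes. NFKB2 and TNFAIP3 also stood higher on the untreated Snai1ER array, by 1.00 and 1.20, and CCL5 lower, at 6.73 against 8.72 on the untreated parental array, while NFKBIZ did not (-0.18). NFKBIZ read 6.40 and 6.26 with TGF-β and 5.58 untreated, but 6.97 and 6.85 in hypoxia. On the deposited scale its mean difference was 0.004.

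Interferon-stimulated genes made up the largest falls. Of 36 compared, 29 were lower (80.6%, against 3.26% of all genes) and none was higher, with a median difference of -1.53 on day 1 and -1.46 on day 2. IFI44L read 5.67 and 6.51 with TGF-β and 9.75 untreated, 16.9-fold and 9.41-fold lower. IFITM1, which blocks virus entry, read 5.39 and 5.27 with TGF-β and 8.16 untreated. OAS1, a sensor of double-stranded RNA, read 7.98 and 7.95 with TGF-β and 10.72 untreated, and IFIT1, which binds viral RNA, 8.67 and 9.11 with TGF-β and 11.41 untreated. XAF1 read 5.23 and 5.43 with TGF-β and 8.07 untreated, and RSAD2 6.35 and 6.82 with TGF-β and 9.22 untreated. The untreated Snai1ER array, however, read as low as the TGF-β arrays. IFI44L was at 4.05 there, IFITM1 at 5.18, OAS1 at 6.77, IFIT1 at 9.08, XAF1 at 5.22 and RSAD2 at 5.42. Over the list its median difference from the untreated parental array was -1.61, and 28 of the 29 lowered genes were at least 1.5-fold lower on it. Set against that array, TGF-β left 3 of the 36 genes lower and 9 higher, with a median of 0.12. The 29 genes had a median level of 7.34 and 7.47 with TGF-β, 8.12 and 6.78 on the TGF-β arrays with knockdown, 9.80 and 10.28 in hypoxia, 7.29 on the untreated Snai1ER array and 9.22 on the untreated parental array. The untreated parental array was among the 3 highest of the 10 arrays without TGF-β for 25 of the 36. The fall of this group is therefore a difference from 1 of 2 untreated arrays. An exception was IFITM3, another antiviral membrane protein. It read 9.36 and 9.33 with TGF-β, 10.54 on the untreated Snai1ER array and 10.58 on the untreated parental array, below every array without TGF-β. IFI6 was also lower against both untreated arrays (7.17 and 7.25 with TGF-β, 8.10 on the untreated Snai1ER array and 9.31 on the untreated parental array). Of 16 interferon receptors and innate sensors none was called. The largest mean difference was that of TLR3 (-0.82 and -0.46), while IFNAR2, a receptor subunit, was at 0.56 and 0.68.

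Promoters of 3 of these genes are shown because many genes of the group hold a shared element. They are IFI44L at chr1:78620198-78620497, IFIT1 at chr10:89392373-89392672 and ISG15, a ubiquitin-like modifier, at chr1:1013247-1013546, all on the plus strand. Capitals mark GAAANNGAA or its reverse complement, the core of the interferon-stimulated response element to which STAT and IRF factors bind.
IFI44L: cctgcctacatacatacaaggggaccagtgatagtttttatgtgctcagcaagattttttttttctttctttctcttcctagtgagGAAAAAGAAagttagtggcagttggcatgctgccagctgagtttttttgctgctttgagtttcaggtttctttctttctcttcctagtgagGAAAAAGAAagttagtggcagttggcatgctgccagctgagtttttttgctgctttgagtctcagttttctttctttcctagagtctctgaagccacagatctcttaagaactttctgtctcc
IFIT1: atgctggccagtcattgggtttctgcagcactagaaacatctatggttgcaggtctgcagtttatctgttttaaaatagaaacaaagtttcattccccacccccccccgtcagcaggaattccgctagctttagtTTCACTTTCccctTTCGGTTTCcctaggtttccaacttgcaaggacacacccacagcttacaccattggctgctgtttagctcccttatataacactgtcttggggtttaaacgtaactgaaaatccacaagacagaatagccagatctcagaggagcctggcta
ISG15: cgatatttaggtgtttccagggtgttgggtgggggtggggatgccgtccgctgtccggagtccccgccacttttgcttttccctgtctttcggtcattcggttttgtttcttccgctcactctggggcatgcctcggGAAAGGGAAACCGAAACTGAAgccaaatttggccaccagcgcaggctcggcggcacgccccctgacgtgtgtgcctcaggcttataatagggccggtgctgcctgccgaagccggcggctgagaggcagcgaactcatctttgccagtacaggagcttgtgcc
Counted from the start site, the core begins at -164 and -73 in IFI44L and at -115 and -102 in IFIT1. In ISG15 there are 3 overlapping matches, which begin at -113, -107 and -101. Among the lowered interferon genes 18 of 27 with a promoter in the table held the core (66.7%), against 6.16% of all compared genes, 8.87% of the 248 other lower genes and 5.5% of the higher genes. The list was made of interferon-stimulated genes, many of which hold this element, so the share describes the list and not the fall. Listed genes that were not lower were not counted apart. ISG15 itself read 7.25 and 7.12 with TGF-β and 8.82 untreated, and 7.18 on the untreated Snai1ER array.

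**Figure D4:**
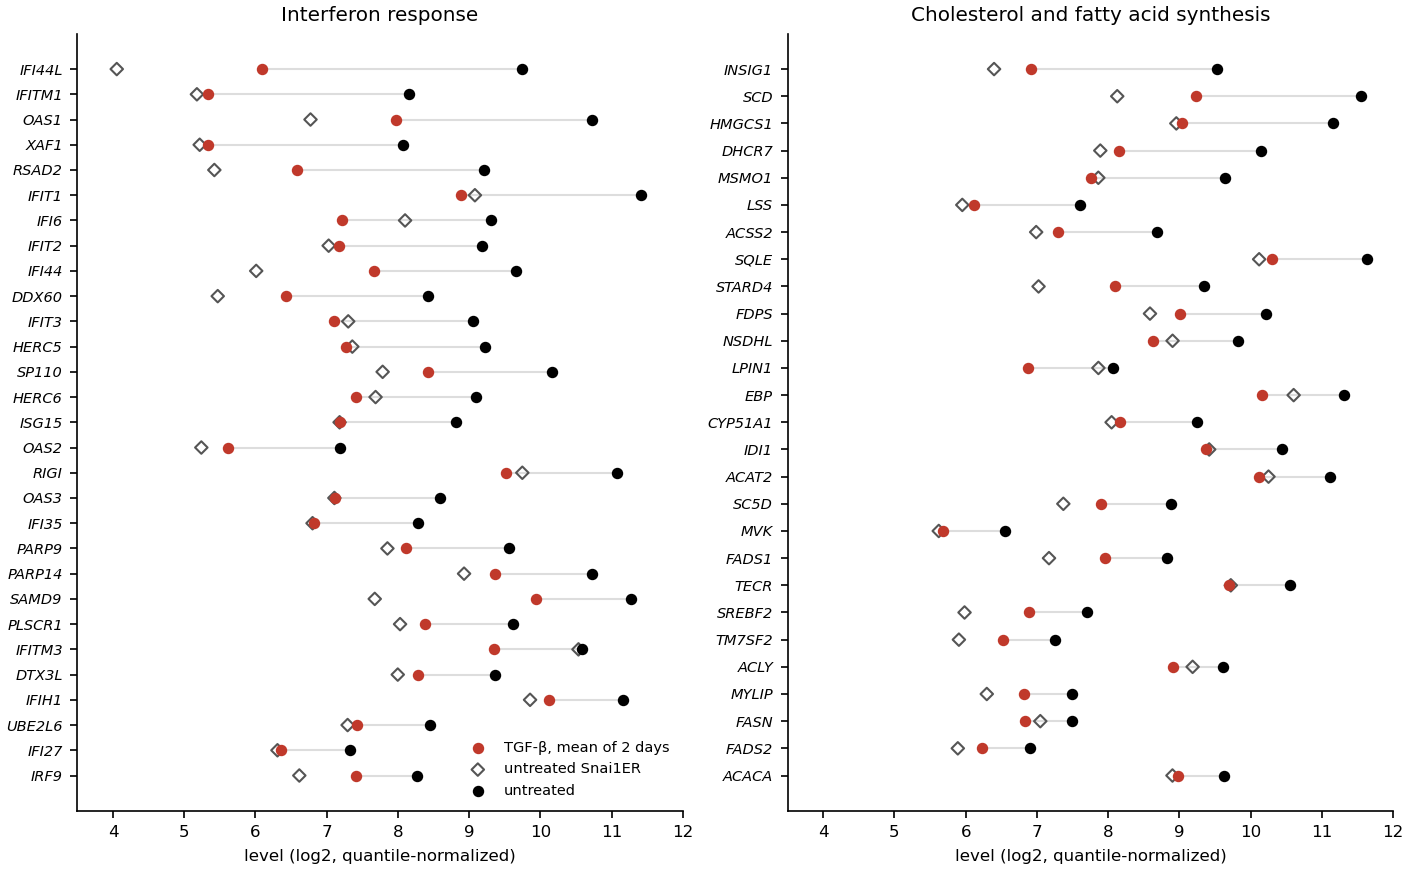
Level (x axis, log2 after quantile normalization) of the lowered genes of the interferon list (left) and of the cholesterol and fatty acid lists (right), 1 gene per row, as the mean of the 2 TGF-β arrays (red), on the untreated Snai1ER array (open diamonds) and on the untreated parental array (black). For most genes the diamond lies near or left of the red point, with IFITM3, IFI6, LPIN1 and EBP among those where it lies to the right.

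Genes of cholesterol synthesis fell together as well. Of 23 compared, 18 were lower (78.3%, against 3.26% of all genes) and none was higher, with a median of -1.12 and -0.99. INSIG1, which holds the sterol-sensing complex in the endoplasmic reticulum, read 6.92 and 6.90 with TGF-β and 9.53 untreated. HMGCS1, an early enzyme of the pathway, read 8.96 and 9.13 with TGF-β and 11.15 untreated, and the last enzyme DHCR7 differed by -2.01 and -1.98 and MSMO1 by -1.96 and -1.82. SREBF2, the transcription factor that drives these genes, was lower too (-0.85 and -0.79). In fatty acid synthesis and storage 9 of 25 genes were lower (36%, against 3.26% of all genes) and none was higher (median -0.41 and -0.37). They were led by SCD, the stearoyl-CoA desaturase (9.12 and 9.34 with TGF-β and 11.54 untreated), the acetate enzyme ACSS2 (-1.30 and -1.48), the phosphatidate phosphatase LPIN1 (-1.13 and -1.24) and the desaturase FADS1 (-0.72 and -1.02). As with the interferon genes, all 18 lowered cholesterol genes and 6 of the 9 fatty acid genes were at least 1.5-fold lower on the untreated Snai1ER array too, where INSIG1 read 6.40, HMGCS1 8.96 and SCD 8.13. Against that array none of the 18 and 1 of the 9 remained lower with TGF-β, the 1 being LPIN1, which read 6.93 and 6.82 with TGF-β, 7.86 on the untreated Snai1ER array and 8.06 on the untreated parental array. FASN, the fatty acid synthase, was below every array without TGF-β, by a small margin (6.84 and 6.81 with TGF-β, the lowest other array at 6.86). The levels of the 18 cholesterol genes had a median of 8.01 and 8.18 with TGF-β, 8.98 and 8.30 with TGF-β and knockdown, 10.11 and 9.90 in hypoxia, 7.88 on the untreated Snai1ER array and 9.59 on the untreated parental array.

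**Figure D5:**
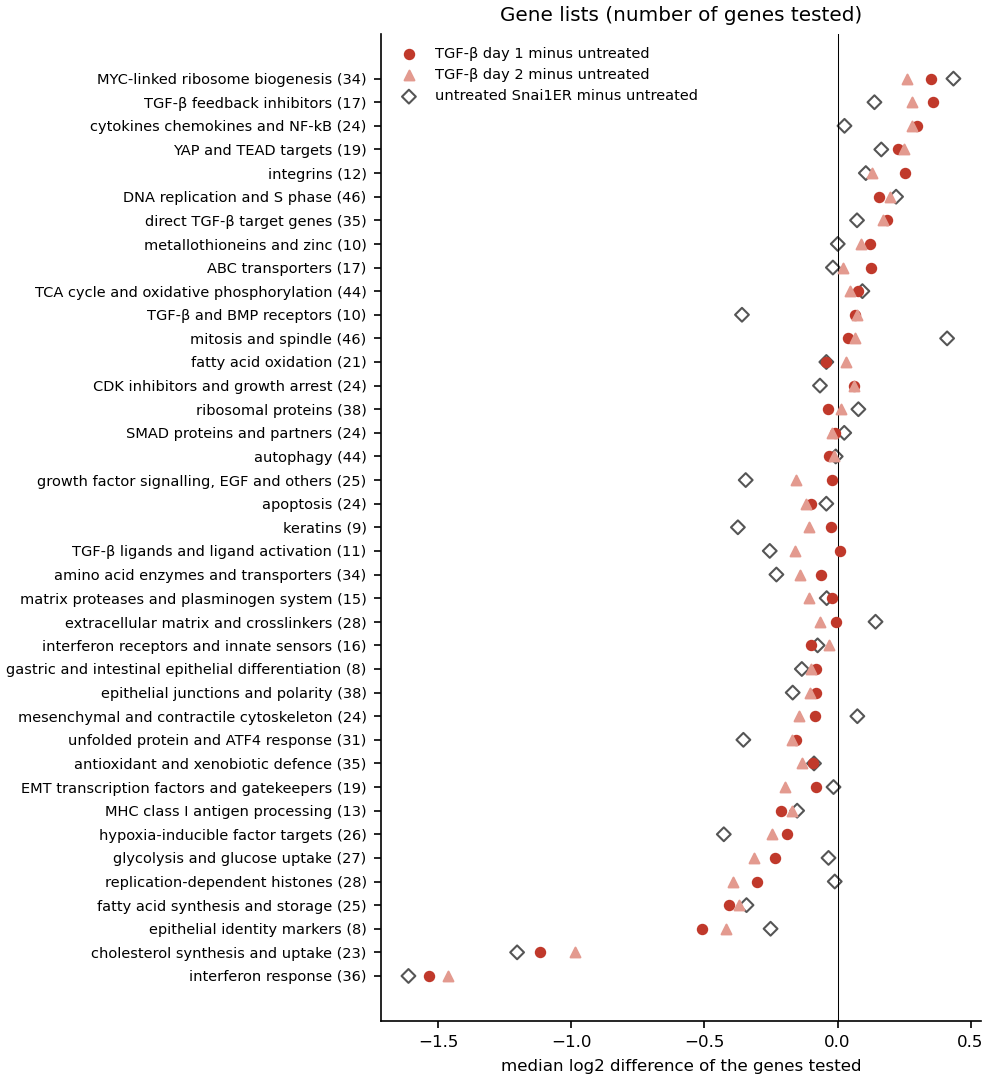
Median log2 difference (x axis) of the compared genes of each list with at least 8 members (y axis, number of genes in brackets) for TGF-β day 1 (circles) and day 2 (triangles), and for the untreated Snai1ER array (open diamonds), each minus the untreated parental array. Interferon response (-1.53 and -1.46, diamond at -1.61) and cholesterol synthesis (-1.12 and -0.99, diamond at -1.20) stand apart from the other lists, and in both the diamond lies beside the TGF-β points.

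Outside these 3 lists there were 304 lower genes, of which 104 were also lower than on the untreated Snai1ER array and 94 lay below every array without TGF-β. The largest of these was SIGLEC6, a lectin that binds sialic acid, which read 7.44 and 7.40 with TGF-β, 9.74 on the untreated Snai1ER array and 9.54 on the untreated parental array, and at least 8.98 on every array without TGF-β. With TGF-β and knockdown it read 8.63 and 7.37. AQP3, a channel for water and glycerol, was among the 12 largest falls (7.55 and 7.62 with TGF-β and 9.82 untreated) but read 7.49 on the untreated Snai1ER array. The glutathione transferases GSTM3 (-1.46 and -1.41) and GSTM4 (-0.70 and -0.93) were lower, while both were higher on the untreated Snai1ER array than on the parental one, by 0.26 and 0.64.

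Few genes of proliferation were called. Of 46 genes of mitosis none was called, with a median of 0.04 and 0.07 and the largest difference for CCNA2, cyclin A2 (0.36 and 0.47). Of 46 genes of DNA replication only TK1, thymidine kinase 1, was called (2.17%, beside 3.26% of all genes). It was lower by 0.79 and 0.66 on the log2 scale, and the median of the list was 0.16 and 0.20. The untreated Snai1ER array lay above the parental one by a median of 0.41 for mitosis and 0.22 for replication. Set against it, 7 mitosis genes were lower and none higher (median -0.38 and -0.33). Of the replication genes 5 were lower and 1 higher (median -0.06 and -0.10). By that comparison 4.18% of all genes were lower and 6.87% higher. The kinase CDK6 was higher (8.80 and 9.01 with TGF-β and 7.98 untreated), and of the 24 CDK inhibitors and growth-arrest genes GADD45A was the other that was called. These are 8.33% of that list, beside 2.5% of all genes. Of 28 replication-dependent histone genes 5 were lower (17.9%, beside 3.26% of all genes) and none higher. The median was -0.30 and -0.39, with H2AC6 at -1.10 and -1.27. Of 34 genes of ribosome biogenesis 1 was higher (2.94%, beside 2.5% of all genes), NOB1 (0.78 and 0.64). The median of the list was 0.35 and 0.26, and the untreated Snai1ER array lay higher by a median of 0.44.

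Among metabolic lists, glycolysis had PFKP, a phosphofructokinase, higher (0.70 and 0.60) and ALDOC, PYGL and PDK1 lower of 27 genes, with a median of -0.23 and -0.31. These are 3.70% of the list higher and 11.1% lower, beside 2.5% and 3.26% of all genes. PYGL, the liver glycogen phosphorylase, lay below every array without TGF-β. PFKP read 9.42 on the untreated Snai1ER array, beside 9.53 and 9.44 with TGF-β. Of 44 genes listed for the TCA cycle and respiratory chain, IDH1, the cytosolic isocitrate dehydrogenase, was lower (-1.49 and -1.33) and NDUFA8 higher. Each is 2.27% of the list, no more than the share of all genes. IDH1 read 9.67 and 9.83 with TGF-β and 9.70 on the untreated Snai1ER array, so that its fall does not hold against that array. On the other arrays without TGF-β it read between 9.95 and 11.38. In fatty acid oxidation the regulator PPARA was the only one called of 21 (4.76%, beside 2.5% of all genes), higher by 0.65 and 0.76. On the deposited scale PPARA did not differ in that direction, with a mean of -0.022. Among 34 amino acid genes ODC1 was higher (0.67 and 0.64) and ASS1, SLC1A3, PHGDH and ARG2 were lower. These are 2.94% of the list higher and 11.8% lower, beside 2.5% and 3.26% of all genes. ODC1 read 12.40 and 12.37 with TGF-β and 12.46 on the untreated Snai1ER array, and PHGDH read 8.32 and 8.17 with TGF-β and 7.87 there, so neither call held against that array. ASS1, an enzyme of arginine synthesis, read 9.43 and 9.26 with TGF-β, but 7.51 on the untreated Snai1ER array and 10.65 on the untreated parental array. No gene of the unfolded protein and ATF4 response was called of 31. ATF3 had the largest mean difference (-0.58 and -0.67) and fell short of the rule on day 1. Of 44 autophagy genes 1 was lower (2.27%, beside 3.26% of all genes), GABARAPL1 (-0.75 and -0.66). Of 26 targets of the hypoxia-inducible factors VEGFA, PDK1 and ALDOC were lower (11.5%, beside 3.26% of all genes) and none was higher. Against the untreated Snai1ER array none of the 26 was lower and 5 were higher, and that array lay below the parental one by a median of -0.43. ALDOC read 5.78 and 5.97 with TGF-β and 5.88 there, and PDK1 read 8.56 and 8.53 with TGF-β and 8.27 there. Among the apoptosis genes DAPK1, lower, was the only one called of 24 (4.17%, beside 3.26% of all genes).

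The remaining lists held few called genes. Of 8 genes of gastric and intestinal differentiation above the filter, the adhesion molecule CEACAM1 (-1.80 and -1.75, with 6.55 on the untreated Snai1ER array beside 5.79 and 5.84 with TGF-β) and the galectin LGALS4 (-0.64 and -0.61) were lower. Of 25 growth factor genes, EFNB2, a membrane-bound ephrin ligand, was higher (0.64 and 0.65) and the receptor FGFR3 was lower (-0.67 and -0.81) beside VEGFA. MICA, a stress ligand of natural killer cells, was the only one called of 13 genes around antigen presentation. It read 5.32 and 5.25 with TGF-β, 6.71 on the untreated Snai1ER array and 6.28 on the untreated parental array, and lay below every array without TGF-β. So did the metallothionein MT1B (-1.02 and -1.13), the only one called of 10. Metallothioneins are near-identical copies, and its probes may share signal with them. Of 38 ribosomal protein genes RPL23 was higher (0.83 and 1.01), and of 35 genes of antioxidant defence TKT, the transketolase, was lower (-0.65 and -0.77) beside GSTM3 and GSTM4. Shares lower were 25% for differentiation, 8% for growth factors, 7.69% for antigen presentation, 10% for metallothioneins and 8.57% for antioxidant defence, beside 3.26% of all genes. Shares higher were 4% for growth factors and 2.63% for ribosomal proteins, beside 2.5%.

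Of the ABC transporters, pumps that export lipids, metabolites and drugs and that the study examined in EMT, 17 were above the filter. Of the 17, 5.88% were higher and 5.88% lower, beside 2.5% and 3.26% of all genes. ABCC4 was higher, at 8.60 and 8.61 with TGF-β and 7.96 untreated. Against the untreated Snai1ER array, at 8.31, it differed by 0.28 and 0.30, short of the rule. It was higher still, at 9.08, on a 4-OHT array with knockdown. ABCA12, a lipid transporter of epidermis, was lower (-0.74 and -0.67). It read 10.28 and 10.35 with TGF-β, 7.89 on the untreated Snai1ER array and 11.02 on the untreated parental array. Among the others ABCC1, which the paper names, differed by 0.33 and 0.27. ABCC2 differed by 0.12 and 0.04, ABCC3 by -0.19 and -0.20 and ABCC5 by 0.04 and 0.00. ABCB1 and ABCG2, which the paper names too, did not reach the filter, nor did ABCG1 and ABCB11. ABCB1, the multidrug pump P-glycoprotein, read 4.50 and 4.24 with TGF-β and 4.16 untreated, and ABCG2 5.87 and 5.89 with TGF-β and 5.72 untreated.

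Among short RNAs, of 74 small nucleolar RNAs 10 were higher (13.5%, against 2.5% of all genes) and 6 lower (8.11%, against 3.26%). Of 32 microRNA genes 4 were higher (12.5%, against 2.5% of all genes) and none lower. Only 1 of the 10 nucleolar RNAs lay above every array without TGF-β. The probes of the microRNA genes lie in their precursor transcripts, and mature microRNAs were not measured.

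The 2 days of TGF-β differed little. Day 2 departed from day 1 by 1.5-fold or more in 14 genes, 6 upward and 8 downward. Among genes past 1.5-fold on at least 1 day, the largest upward difference was that of IFI44L, at -4.08 on day 1 and -3.23 on day 2. The carrier SLC25A35 was likewise lower by less on day 2 (-1.60 and -0.92), and LIMD1-AS1 too (-2.03 and -1.39). LCN1, a lipocalin, was at -0.83 on day 1 and -0.09 on day 2, and the pseudogene ANXA2P1 at 0.38 and 0.95. In the other direction POU5F1P4, a pseudogene, was at 0.75 and -0.07, FMN1, a formin, at 0.17 and -0.65, and PDK2 at -0.29 and -0.92. SNORD116-6 (-0.87 and -1.49) and the histone H1-5 (0.83 and 0.22) followed. An untreated array of day 1 is not among the 14, so a change of the culture between the days cannot be told apart from the time with TGF-β.

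TGF-β was also given to cells with ANGPTL4 knockdown, on arrays that do not carry the lower scale. PMEPA1 read 7.0 and 7.36 on those arrays and SKIL 10.95 and 10.36, above their untreated levels of 5.74 and 9.69, whereas EDN1 read 6.22 and 6.67 and ID2 6.63 and 6.62 beside untreated levels of 6.15 and 6.62. Over the 276 higher genes the median difference was 0.80 and 0.81 with TGF-β alone and 0.12 and 0.25 with TGF-β and knockdown, and over the 360 lower genes -0.85 and -0.84, and -0.43 and -0.70. Both comparisons share the untreated array, and parental cells with knockdown and no treatment are not among the 14 arrays. The 276 and 360 genes were picked for their size on the arrays with TGF-β alone. Medians on arrays not used for that choice tend to be smaller whatever the knockdown does, and its effect was not tested.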

How the data were processed

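RNA was amplified with the NuGEN system and hybridised to 14 GeneChip Human Gene 1.0 ST arrays, 1 per condition. The deposited log2 values were made by the authors with RMA in Partek, per the submitters' processing notes, which give no versions. Scanner files were not used here. The platform annotation lists 21214 of 33297 probe sets. Those with a single symbol (19460) were used, and 1754 with several symbols and 12083 without an entry were left out. Current symbols came from the gene ID for 19429 probe sets. limma 3.58.1 (R 4.3.3) gave the arrays equal quantiles, and a mean was taken where a gene had several probe sets (769 of 18417 genes). Genes whose mean as deposited reached the 40th percentile (5.90) were kept. With 1 array per condition there is no test, and the number of arrays limits the precision. Promoters came from RefSeq on GRCh38.p14.

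The genes, the 43 gene lists and the alternatives were chosen with earlier results of these data known. Names were drawn from the 12 largest rises and falls and from up to 4 called members of each list in each direction. Where no member of a list was called, the largest difference was eligible. Not all of these genes are given. Also named were 5 genes per direction of day 2 against day 1 and members of the ligand, receptor, SMAD and feedback lists. ABC transporters were named too, of which the paper names ABCB1, ABCC1 and ABCG2. Other names, such as CDH1, EPCAM, KRT18, CCN2, IFI6, IFITM3, ISG15, FASN and ELK3, were chosen after their values were seen. Listed genes with no probe set of their own were not analysed here.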

Additional observations from a re-analysis of the deposited data

How the results depend on the processing

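Counts of higher and lower genes, 276 and 360, became 50 and 3565 with the deposited values and 2490 and 206 with each array centred on its median. On these scales the median of all genes lies at -0.46 and 0.35. They were 639 and 703 with no filter on dim genes, 172 and 244 with a filter at the 60th percentile, 48 and 105 with a 2-fold rule, and 460 and 485 on day 1 alone. Quantile normalization of the 3 arrays (352 and 438), cyclic loess (390 and 393), the brightest probe set (276 and 369), day 2 alone (386 and 519) and the mean of the 2 untreated arrays (319 and 266) kept both counts within 1.5 times. The same genes were not all called with the last, which shared 153 of the 276 higher and 174 of the 360 lower genes. The untreated Snai1ER array alone, added after the data had been seen, gave 759 and 462.

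Among the named genes that were called, the mean of the 2 untreated arrays turned the sign of ABCA12 (0.86), ASS1 (0.26), KRT5 (0.37) and ETS1 (-0.10), and the deposited scale that of PPARA (-0.022). Relative to all genes, the medians of the feedback (0.19 to 0.36), interferon (-1.51 to -1.44) and cholesterol lists (-1.08 to -0.99) kept their sign under the quantile, deposited and loess scales. No paired analysis was possible because each condition is 1 array and the labels give no replicate numbers. No replicate could be left out for the same reason.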
